A study of Mus musculus with 6 samples.

Results

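Interferon regulatory factors are a family of transcription factors named for their part in interferon gene control, and 8 of them, Irf1, Irf2, Irf3, Irf4, Irf5, Irf7, Irf8 and Irf9, were followed in mouse liver. They were taken by their gene symbol, and all 8 were found among the 22488 genes of the count tables. The animals were male wild type C57BL/6 mice, 6 to 8 weeks old, and whole liver RNA was sequenced. The LPS group (n = 3) had been injected intraperitoneally with 6 mg/kg lipopolysaccharide, a cell wall component of Gram-negative bacteria, and the control group (n = 3) with 200 µl of HBSS, a balanced salt buffer. All mice of both groups had been fasted for 16 h. Another label of the control samples reads as untreated, and how long after injection the livers were taken is not known from the labels. The series was set up to ask how LPS changes the liver transcriptome, in particular lipid handling, and the interferon regulatory factors belong to the immune side of that response.

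All members of the family share a DNA-binding domain that recognises the core letters GAAA, repeated in the interferon-stimulated response element (ISRE). When TLR4, the LPS receptor, signals through its adaptor TRIF, the kinases TBK1 and IKKε phosphorylate IRF3, which then enters the nucleus and switches on the interferon-beta gene. Interferons released in this way act on receptors whose signal brings IRF9 into the complex ISGF3, which binds the ISRE of antiviral genes and of Irf7. Interferon-gamma acts instead through the gamma-activated site (GAS), a known element of the Irf1 promoter. IRF2 binds the same elements as IRF1 and is known as its antagonist, IRF5 works below the adaptor MyD88, and IRF4 and IRF8 act mainly in blood cells together with the partner PU.1. In liver, Kupffer cells and other immune cells carry much of this machinery beside hepatocytes.

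Some of these genes are known targets of their own pathway, so their promoters were examined for motif letters. RefSeq (GRCm38.p6) gave 11 promoter windows for the 8 members, each of 250 bases before and 50 after a transcription start. The windows of Irf1, Irf2 and Irf8 are shown because they held letters of a searched motif, and those of Irf7 and Irf3 because these members had the largest changes in each direction. The bases before the start are printed from 5′ to 3′ on the strand of the gene, and capitals mark motif letters.
Irf1 promoter, chr11:53769764-53770013, plus strand: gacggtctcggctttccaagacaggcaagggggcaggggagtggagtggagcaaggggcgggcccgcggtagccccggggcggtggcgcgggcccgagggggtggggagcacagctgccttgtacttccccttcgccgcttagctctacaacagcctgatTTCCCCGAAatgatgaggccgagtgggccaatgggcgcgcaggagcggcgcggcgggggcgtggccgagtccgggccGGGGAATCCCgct
Irf2 promoter, chr8:46739495-46739744, plus strand: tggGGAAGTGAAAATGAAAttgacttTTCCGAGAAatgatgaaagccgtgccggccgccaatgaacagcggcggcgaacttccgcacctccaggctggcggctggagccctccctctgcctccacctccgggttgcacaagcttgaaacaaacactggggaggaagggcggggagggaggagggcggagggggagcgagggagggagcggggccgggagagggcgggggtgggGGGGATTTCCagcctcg
Irf8 promoter, chr8:120736108-120736357, plus strand: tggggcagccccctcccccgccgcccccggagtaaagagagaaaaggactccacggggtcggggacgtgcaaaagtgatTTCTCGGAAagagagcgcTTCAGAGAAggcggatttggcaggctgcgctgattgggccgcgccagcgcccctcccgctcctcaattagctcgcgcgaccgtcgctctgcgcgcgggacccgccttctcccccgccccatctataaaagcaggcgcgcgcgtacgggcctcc
Irf7 promoter, chr7:141266425-141266674, minus strand: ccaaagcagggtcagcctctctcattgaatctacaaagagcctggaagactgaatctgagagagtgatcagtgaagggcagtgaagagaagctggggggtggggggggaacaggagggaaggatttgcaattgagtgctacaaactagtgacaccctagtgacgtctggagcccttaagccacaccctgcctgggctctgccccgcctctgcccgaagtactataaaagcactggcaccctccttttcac
Irf3 promoter, chr7:44997398-44997647, plus strand: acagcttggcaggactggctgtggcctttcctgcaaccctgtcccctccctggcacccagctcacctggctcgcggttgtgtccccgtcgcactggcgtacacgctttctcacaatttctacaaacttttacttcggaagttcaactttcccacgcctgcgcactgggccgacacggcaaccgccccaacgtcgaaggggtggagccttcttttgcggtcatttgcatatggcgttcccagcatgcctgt

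Both strands were searched for 4 motifs: the GAS as TTCNNNGAA, the ISRE as GAAANNGAAA, the composite element of PU.1 with IRF4 or IRF8 (EICE) as GGAANNGAAA, and the NF-kB consensus. The window of the first Irf1 start held a GAS, TTCCCCGAA, 90 bases before the start, and an NF-kB match, GGGGAATCCC, 13 bases before it. The Irf2 window was the only one of the 11 with an ISRE match, GAAAATGAAA at 241 bases before the start, and it overlapped an EICE match, GGAAGTGAAA at 247 bases. The same window held a GAS match, TTCCGAGAA at 224 bases, and an NF-kB match, GGGGATTTCC at 17 bases. The first Irf8 window held 2 GAS matches, TTCTCGGAA and TTCAGAGAA, at 171 and 153 bases before the start. None of the letters searched stood in the windows of Irf3, Irf4, Irf5, Irf7 or Irf9, or at the second starts of Irf1 and Irf8, which says only that these letters are not in these windows.

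Matches of this length also turn up elsewhere. Of 32851 promoter windows of all genes, 8.30% held a GAS match, 3.44% an ISRE match, 2.72% an EICE match and 8.46% an NF-kB match. Among windows of genes higher in LPS livers, defined by the test described next, the ISRE share was 4.27%, against 2.52% among those lower in LPS livers and 3.08% among those not called. The NF-kB shares were 11.5%, 9.99% and 10.1% in the same order, and the GAS shares 7.69%, 6.10% and 7.02%. These shares are a description of the windows and were not tested.

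**Figure D1:**
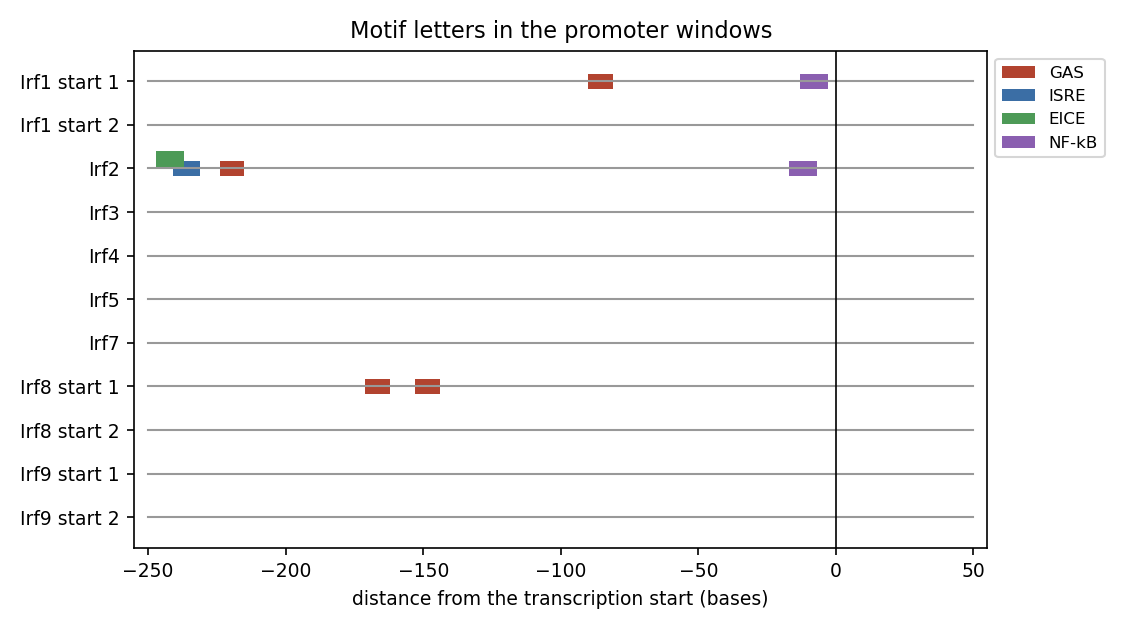
Positions of motif letters in the 11 promoter windows of the 8 members, in bases from the transcription start; coloured boxes are matches on either strand. Matches stood in 3 windows, those of Irf2 and of the first starts of Irf1 and Irf8, and the EICE box of Irf2 is raised because it overlaps the ISRE box.

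The libraries held 11488525 to 15437785 counted reads in the LPS group and 12577993 to 20282004 in the control group. Levels are given as library-scaled counts (CPM, with TMM scaling). A log2 fold change is the LPS level minus the control level, shown with its standard error (SE), and adjusted p values come from edgeR's quasi-likelihood test over all 12078 genes that passed a filter on low counts. The words rose and fell are kept for an adjusted p under 0.05. The labelled tissue was borne out by hepatocyte markers, whose 12 genes were all tested and summed to 75980 to 103200 CPM in LPS livers, against 123000 to 136000 CPM in control livers. Nothing beyond the labels says that libraries came from separate mice, so p values measure the spread between these 6 samples, which may be technical.

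All 8 members passed the filter, and 6 of them rose, 1 fell and 1 was not called. Over all tested genes 62.3% passed the threshold, 31.3% upward and 31.0% downward, so a call as such is common in these livers. The median log2 fold change was 0.75 for the 8 members and 0.01 for all tested genes. The 2 groups were free of overlap in 7 of the 8 members, against 67.4% of all tested genes. The change spanned a wide range, with Irf7 at the 97.6th percentile of all tested log2 fold changes and Irf3 at the 8.33rd.

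**Figure D2:**
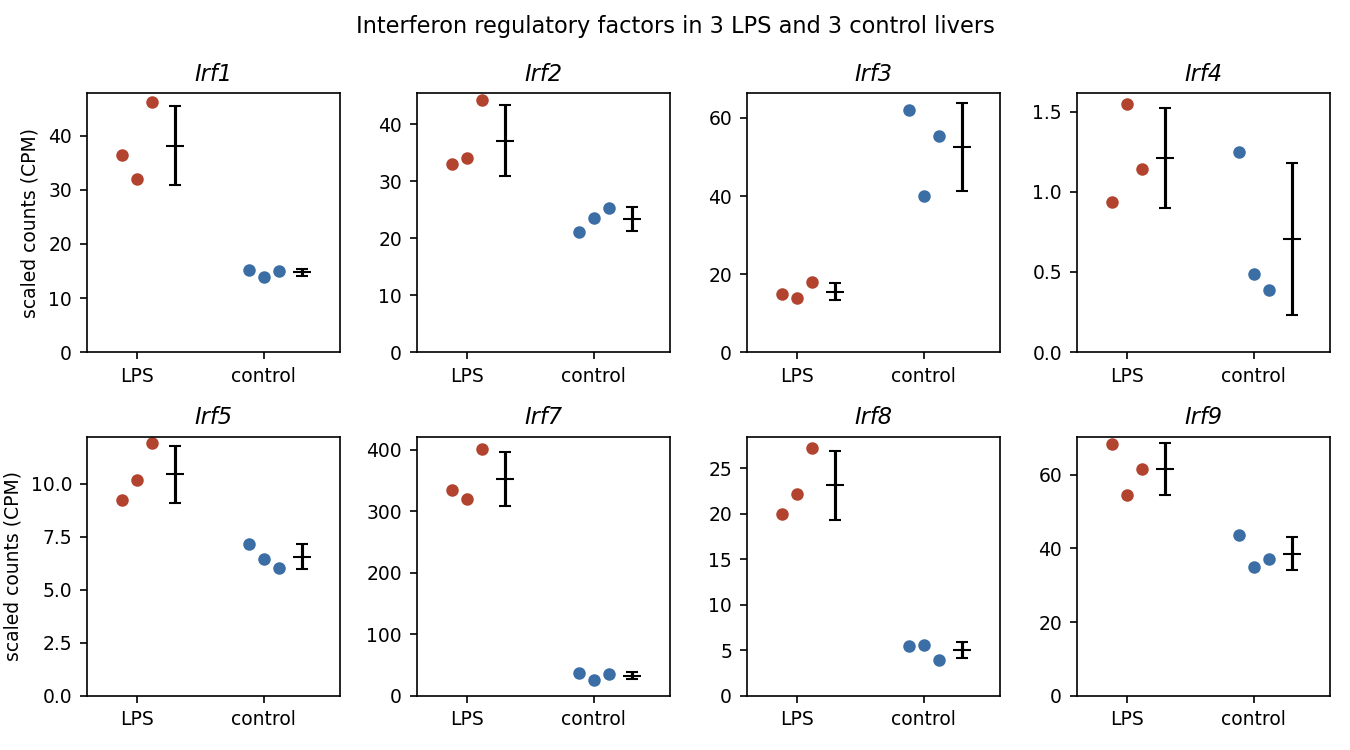
Level of each member in CPM (vertical axis, from 0, a separate scale in each panel) in the 3 LPS and 3 control libraries. Dots are libraries and bars are mean ± SD. The groups overlap in Irf4 alone, and Irf3 is the member with the lower LPS values.

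Irf7, the interferon-inducible amplifier of type I interferon production (chromosome 7, 141262706 to 141266481, minus strand), had the largest change of the family. It stood at 335, 320.4 and 402 CPM in LPS replicates 1, 2 and 3, against 37.0, 25.9 and 35.5 CPM in control replicates 1, 2 and 3. The lowest LPS library was far above the highest control library. The mean was 353 ± 43.6 CPM in LPS livers and 32.8 ± 6.04 CPM in control livers (SD, n = 3 each), and the log2 fold change was 3.43 (SE 0.17, edgeR adjusted p = 1.097e-09), or 10.8-fold. Its 3′ end shares 45 exon bases with Phrf1, a gene on the other strand that rose too, with 28.7 ± 5.43 CPM in LPS livers and 22.1 ± 1.63 CPM in control livers (log2 fold change 0.38, SE 0.15, adjusted p = 0.0435). The strand setting of the counting is not known.

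Irf3, the factor that TBK1 activates below TLR4 and TRIF (chromosome 7, 44997648 to 45002848, plus strand), was the only member that fell. It stood at 14.8, 13.9 and 17.9 CPM in LPS replicates 1, 2 and 3, against 62.1, 40.1 and 55.4 CPM in control replicates 1, 2 and 3. All LPS libraries lay below all control libraries, and control replicate 2 was the lowest control for both Irf3 and Irf7. The mean was 15.5 ± 2.11 CPM in LPS livers and 52.5 ± 11.3 CPM in control livers (n = 3 each), and the log2 fold change was -1.75 (SE 0.17, adjusted p = 1.035e-06). That is 3.37-fold lower in LPS livers. Irf3 shares 88 exon bases with Bcl2l12 on the other strand, which fell as well, with 0.783 ± 0.313 CPM in LPS livers and 1.94 ± 0.673 CPM in control livers (log2 fold change -1.27, SE 0.50, adjusted p = 0.0391).

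Because both are read in the same library, the ratio of Irf7 to Irf3 counts needs no scaling between libraries. It was 22.6, 23.1 and 22.5 in LPS replicates 1, 2 and 3, against 0.597, 0.646 and 0.641 in control replicates 1, 2 and 3. Within each group the ratio varied far less than either gene did, with a mean of 22.7 ± 0.348 in LPS livers and 0.628 ± 0.0269 in control livers (SD, n = 3 each). Irf3 had only 174, 197 and 251 counts in LPS replicates 1, 2 and 3, so counting noise limits how finely the ratio is known. Whether so small a spread over 3 libraries is more than chance was not tested. The ratio was 36.2-fold higher in LPS livers (2-sided exact permutation test over 20 splits, p = 0.10, also after adjustment over the 2 ratios compared, and the smallest p that 3 against 3 allows).

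Irf9, the DNA-binding subunit of ISGF3 (chromosome 14, 55603571 to 55610030, plus strand), rose by much less. It stood at 68.5, 54.4 and 61.7 CPM in LPS replicates 1, 2 and 3, against 43.7, 35.1 and 37.1 CPM in control replicates 1, 2 and 3. The groups did not overlap. The log2 fold change was 0.67 (SE 0.13, adjusted p = 6.374e-04), with means of 61.6 ± 7.03 CPM in LPS livers and 38.6 ± 4.54 CPM in control livers. Irf9 shares 123 exon bases with Rnf31, the gene before it on the same strand, which had 17.5 ± 2.49 CPM in LPS livers and 13.9 ± 2.30 CPM in control livers (log2 fold change 0.33, SE 0.18, adjusted p = 0.124).

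Irf1, the interferon-gamma-induced activator of antigen presentation and antimicrobial genes (chromosome 11, 53770014 to 53778374, plus strand), stood at 36.4, 31.9 and 46.2 CPM in LPS replicates 1, 2 and 3, against 15.2, 13.9 and 15.1 CPM in control replicates 1, 2 and 3. The control libraries were close to each other, with a coefficient of variation of 4.82%, while the LPS libraries varied by 19.1%. The log2 fold change was 1.38 (SE 0.16, adjusted p = 4.029e-06), or 2.60-fold. Irf2, its antagonist (chromosome 8, 46739732 to 46847458, plus strand), stood at 33.1, 34.0 and 44.3 CPM in LPS replicates 1, 2 and 3, against 21.1, 23.6 and 25.3 CPM in control replicates 1, 2 and 3. Irf2 rose as well, and LPS replicate 3 was the highest library for both genes. Its log2 fold change was 0.67 (SE 0.15, adjusted p = 0.00126), or 1.59-fold.

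The activator stood higher relative to the antagonist in the LPS libraries than in the control libraries. The ratio of Irf1 to Irf2 counts was 1.10, 0.938 and 1.04 in LPS replicates 1, 2 and 3, against 0.720, 0.589 and 0.595 in control replicates 1, 2 and 3. The groups did not overlap, and the ratio was 1.62-fold higher in LPS livers (2-sided exact permutation test, p = 0.10, the smallest that 3 against 3 allows, and 0.10 after adjustment over the 2 ratios). Per kilobase of principal transcript the ratio averaged 1.20 ± 0.0963 in LPS livers and 0.741 ± 0.0863 in control livers. By that length Irf1 stood above Irf2 in the LPS group and below it in the control group. With all annotated exons of a gene as its length, Irf1 stood above Irf2 in control livers too (3.705 against 3.16 CPM per kilobase).

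Irf8, the factor of monocyte, macrophage and dendritic cell development (chromosome 8, 120736358 to 120756694, plus strand), had the second largest rise. It stood at 20.0, 22.2 and 27.3 CPM in LPS replicates 1, 2 and 3, against 5.46, 5.55 and 3.98 CPM in control replicates 1, 2 and 3. The lowest LPS library exceeded the highest control library several times over. The log2 fold change was 2.21 (SE 0.20, adjusted p = 4.477e-07), or 4.63-fold. In bulk tissue, more cells that express such a gene and more RNA per cell cannot be told apart.

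Irf5, which drives inflammatory cytokine genes in macrophages (chromosome 6, 29526625 to 29541871, plus strand), stood at 9.21, 10.2 and 11.9 CPM in LPS replicates 1, 2 and 3, against 7.17, 6.47 and 6.03 CPM in control replicates 1, 2 and 3. The groups were separate, though the nearest libraries were not far apart. The log2 fold change was 0.67 (SE 0.21, adjusted p = 0.0113), the least certain of the 7 calls. Irf5 shares 411 exon bases with Tnpo3 on the other strand, which had 33.4 ± 0.832 CPM in LPS livers and 39.5 ± 4.75 CPM in control livers and did not pass the threshold (adjusted p = 0.120).

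Irf4, a factor of B cells, plasma cells and activated T cells (chromosome 13, 30749226 to 30766976, plus strand), was close to the limit of detection. It had 11, 22 and 16 counts in LPS replicates 1, 2 and 3, against 16, 10 and 6 counts in control replicates 1, 2 and 3, or 0.938 to 1.55 CPM in LPS livers and 0.385 to 1.25 CPM in control livers. The groups overlapped, and the log2 fold change of 0.82 (SE 0.57, adjusted p = 0.227) had a 95% interval of -0.41 to 2.06. That interval holds 0 as well as the changes of Irf1 and Irf5.

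**Figure D3:**
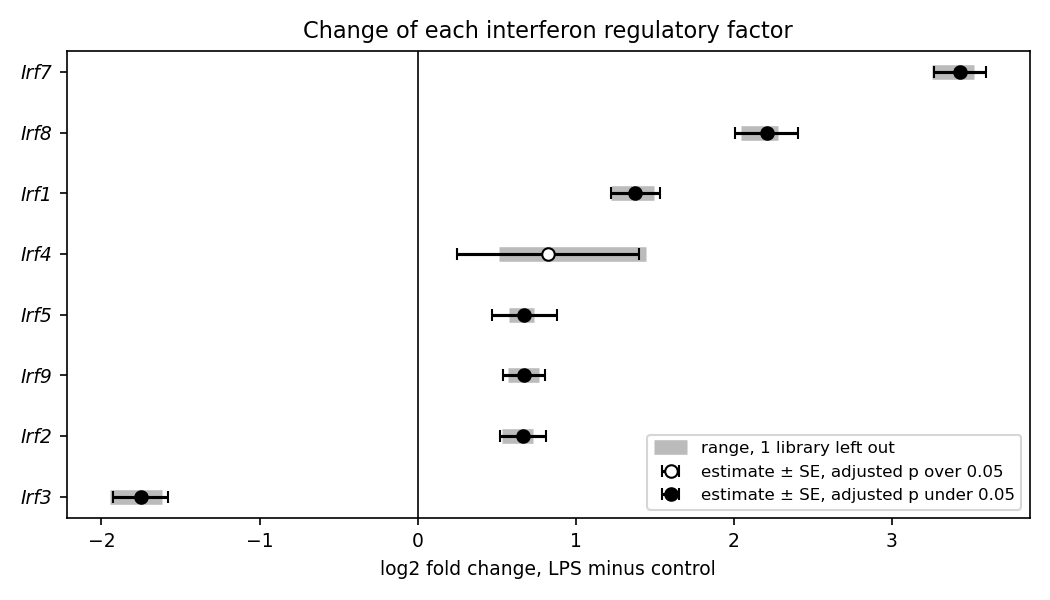
Log2 fold change of each member, LPS minus control, as the edgeR estimate ± SE (horizontal axis), with grey bars for the range when each of the 6 libraries was left out in turn. Irf7 stands highest at 3.43 and Irf3 lowest at -1.75, and the open circle is Irf4, whose adjusted p was over 0.05.

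Levels of different members were compared per kilobase of their principal transcript. In LPS livers the order of the means was Irf7, Irf9, Irf1, Irf2, Irf8, Irf3, Irf5 and Irf4, and in control livers it was Irf3, Irf7, Irf9, Irf2, Irf1, Irf5, Irf8 and Irf4. In LPS livers the libraries overlapped between the neighbours Irf1 and Irf2 and between Irf8 and Irf3, and in control livers between Irf7 and Irf9. All other neighbours were separate in their group. With all annotated exons of a gene as its length, Irf3, Irf5 and Irf8 took the places 5, 6 and 7 in LPS livers, and Irf1 stood above Irf2 in control livers too, so those positions depend on the length used.

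Irf7 made up 69.5%, 70.4% and 70.4% of the summed level of the 8 members per kilobase in LPS replicates 1, 2 and 3, against 21.8%, 19.7% and 22.5% in control replicates 1, 2 and 3. Irf3 made up 2.91% ± 0.0404 of it in LPS livers and 32.2% ± 2.95 in control livers (SD, n = 3 each). The share of Irf9 was 9.60% ± 1.35 in LPS livers and 19.8% ± 1.28 in control livers, although its level rose. The summed level was 263 ± 31.9 CPM per kilobase in LPS livers and 79.8 ± 10.3 CPM per kilobase in control livers. Without Irf7, the other 7 members summed to 76.8, 70.2 and 88.4 CPM per kilobase in LPS replicates 1, 2 and 3, against 69.3, 54.9 and 63.7 in control replicates 1, 2 and 3, a ratio of means of 1.25. The gain of the family total was thus mostly that of Irf7, while the members below it changed places.

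**Figure D4:**
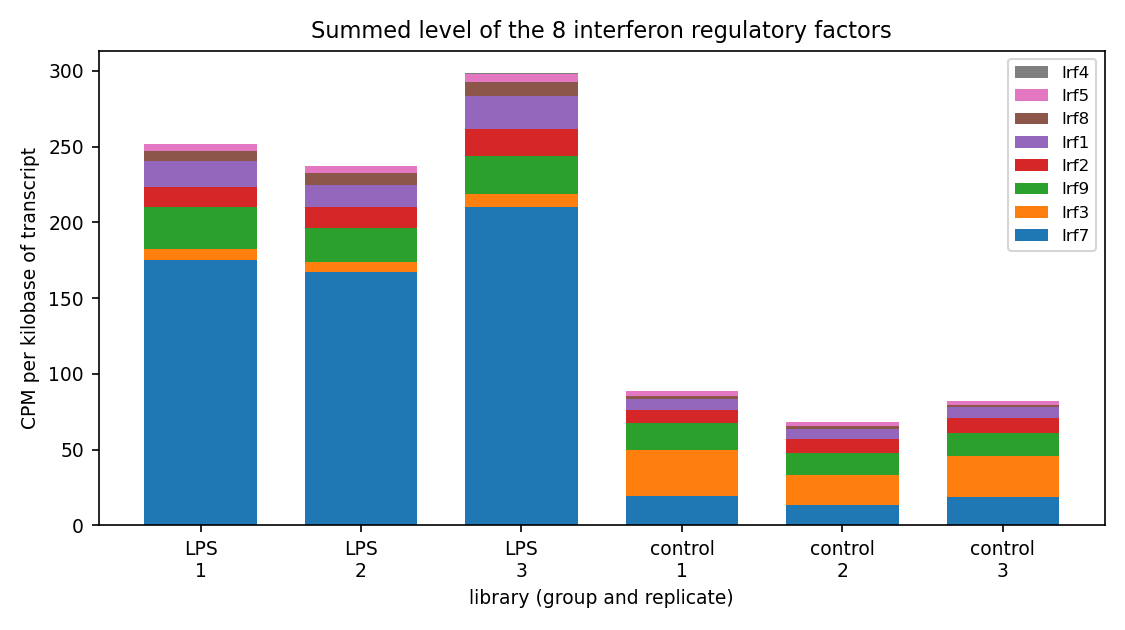
Summed level of the 8 members in CPM per kilobase of principal transcript (vertical axis) in each library, stacked by member. Irf7 fills about the same large share of every LPS bar, while Irf3 is the largest part of the control bars.

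The steps upstream of the factors were described by a list of 25 genes of TLR4 signalling and of RNA and DNA sensing. Some genes stand in more than 1 of the lists used here and below, so the lists are not independent. Ifih1 and Dhx58 are in both the sensing list and the antiviral list, and Usp18 in both the antiviral list and the cofactor list. Of 22 tested genes of the sensing list, 14 rose and 1 fell, and the median log2 fold change was 1.03. Over all tested genes 31.3% rose and 31.0% fell. Cd14, the LPS co-receptor, had 1261 ± 210 CPM in LPS livers and 5.13 ± 1.49 CPM in control livers. Tbk1, the kinase of IRF3, rose to 92.8 ± 4.05 CPM in LPS livers, against 26.9 ± 2.42 CPM in control livers (log2 fold change 1.79, SE 0.12, adjusted p = 3.407e-08). The member of the list that fell was Mavs, the mitochondrial adaptor that leads from RNA sensors to IRF3, with 27.9 ± 0.523 CPM in LPS livers and 104 ± 13.5 CPM in control livers (log2 fold change -1.90, SE 0.13, adjusted p = 3.469e-08). Mavs and Irf3 both fell, while the kinase between them rose.

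Transcripts of the listed interferons were close to absent from the counts. Of the 16 listed ligands 13 had no count in any of the 6 libraries, and 0 passed the filter. Ifng, the ligand of the interferon-gamma receptor, had 6 counts over the 3 LPS libraries and 2 over the 3 control libraries. Ifnb1, the classical target of IRF3, was named after its values were seen, and had 2 counts in the LPS group, both in LPS replicate 1, and 0 in the control group. The Ifng and Ifnb1 totals were all even, and it is not known whether 1 fragment could give 2 counts. At this depth no difference in ligand RNA could be tested. The handling of multi-mapped reads is not known, so a count of 0 need not mean that no such RNA was present.

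Of 10 tested genes of the interferon receptors and their JAK-STAT relay, 4 were higher and 2 lower, with a median log2 fold change of 0.27. These counts are near the shares of all tested genes, of which 31.3% were higher and 31.0% lower. Among the 4, Il10rb was only just past the threshold (edgeR adjusted p = 0.0457) and lost its call in most alternatives. Stat2, which binds IRF9 in ISGF3, rose to 90.6 ± 12.7 CPM in LPS livers, against 46.4 ± 13.1 CPM in control livers (log2 fold change 0.97, SE 0.18, adjusted p = 3.280e-04). Stat2 and Irf9 thus both rose. The receptor subunit Ifnar1 rose (log2 fold change 0.60, SE 0.12), whereas Jak1, the most abundant gene of the list, did not pass the threshold (adjusted p = 0.0787). The 2 that fell, named after their values were seen, were the receptor subunit Ifnar2 (-0.49) and the kinase Tyk2 (-0.56). The call of Tyk2 ended without LPS replicate 1 (-0.50), control replicate 1 (-0.44) or control replicate 3 (-0.54).

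Genes that ISGF3 is known to switch on had a larger median change than Irf9 and Stat2. All 25 tested genes of this antiviral list rose, against 31.3% of all tested genes, with a median log2 fold change of 3.25. This list and the next were chosen with earlier results of these data known, so their counts and medians are descriptions only. Isg15, a ubiquitin-like modifier, had 349 ± 103 CPM in LPS livers and 4.52 ± 1.01 CPM in control livers, while on the log2 scale Zbp1, a nucleic acid sensor, rose by 4.67 (SE 0.19) and Mx1, an antiviral GTPase, by 5.35 (SE 0.23). Bst2, which tethers viruses to the cell, was the most abundant of the list, with 370.1 ± 31.7 CPM in LPS livers and 115 ± 15.7 CPM in control livers. Of 21 tested genes linked to IRF1 and interferon-gamma, 19 rose and 0 fell, and their median was 2.86. Cxcl9, a T cell chemokine, reached 1732 ± 67.8 CPM in LPS livers, against 4.90 ± 1.07 CPM in control livers, and the guanylate-binding proteins Gbp2 (7.61, SE 0.20) and Gbp3 (5.27, SE 0.18) rose on the log2 scale. Both medians lie above the 1.38 of Irf1 and the 0.67 of Irf9, and below the 3.43 of Irf7.

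Most tested genes listed as partners or regulators of the factors rose, against 31.3% of all tested genes. Of 8 tested genes in the list named for partner factors of IRF4 and IRF8, 5 rose and 0 fell, and the median log2 fold change was 1.06. Spi1, the gene of PU.1, stood at 10.6, 16.5 and 12.1 CPM in LPS replicates 1, 2 and 3, against 4.05, 4.82 and 4.11 CPM in control replicates 1, 2 and 3 (log2 fold change 1.59, SE 0.23, adjusted p = 4.008e-05). Batf2, a partner of Irf1 and Irf8 in macrophages, had 10 counts in the control group, all in control replicate 2, and 141 in the LPS group. Id2, the most abundant of the list, is a general inhibitor of basic helix-loop-helix factors rather than a partner, and is among the 5 that rose (1.20, SE 0.13). Of 14 tested cofactors and negative regulators 10 rose and 1 fell, with a median of 0.68. The feedback inhibitor Socs1 reached 105 ± 3.16 CPM in LPS livers, against 0.592 ± 0.340 CPM in control livers, while Socs3 (4.29) and the STAT phosphatase Ptpn2 (3.11) rose on the log2 scale. The faller was Irf2bp1, a corepressor that binds IRF2, named after its value was seen (-0.80, SE 0.15, adjusted p = 4.572e-04).

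**Figure D5:**
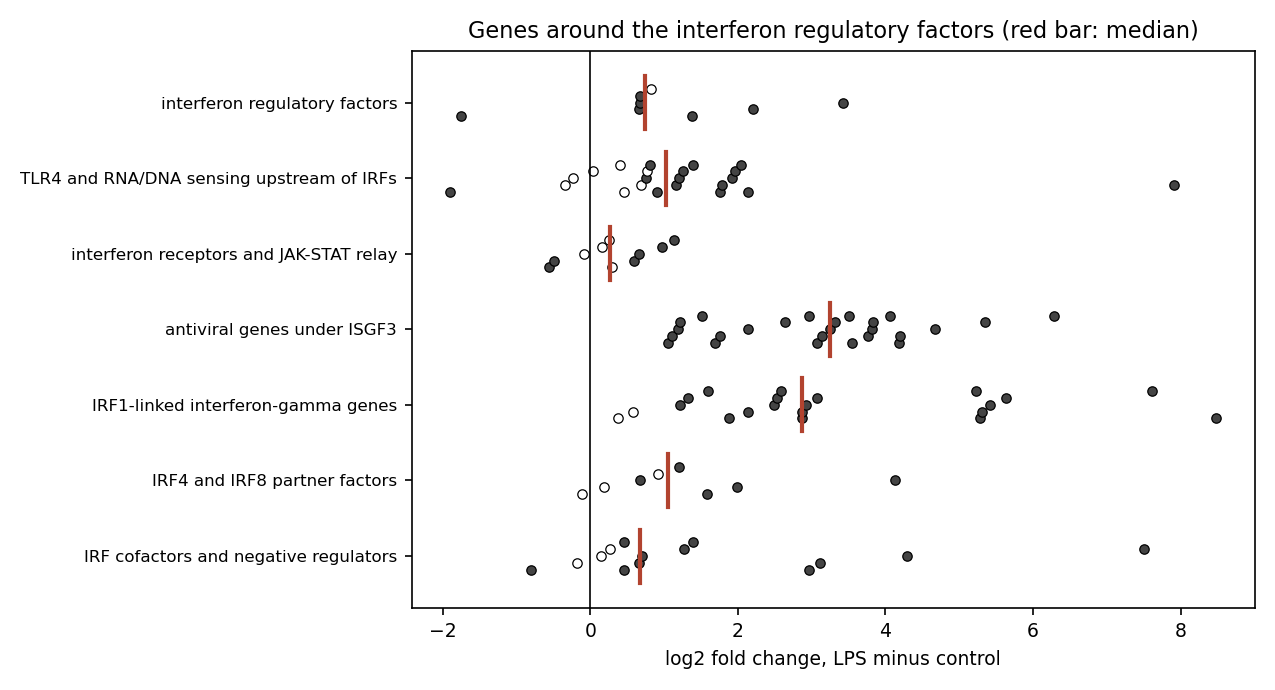
Log2 fold change, LPS minus control (horizontal axis), of each tested gene in the family and in 6 lists around it; filled dots had an adjusted p under 0.05, open dots did not, and red bars are medians. The ligand list has no tested gene and is not drawn, and the antiviral list has its median at 3.25, against 0.75 for the 8 members.

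Cell type markers changed beside these genes, and their part in the results was not tested. The counts of markers stand beside 31.3% of all tested genes that rose and 31.0% that fell. Of 12 Kupffer cell markers 11 were tested, 10 fell and 1 (Marco) rose, and the list summed to 86.6 to 138 CPM in LPS livers, against 360.0 to 412 CPM in control livers. Irf8, Irf5 and Spi1, which these cells also express, were higher in the same LPS livers. All 9 tested neutrophil markers rose, with the list of 10 at 213 to 262 CPM in LPS livers and 4.52 to 8.03 CPM in control livers. Of 6 tested monocyte markers 5 rose, and the list of 8 summed to 1560 to 2892 CPM in LPS livers and 971 to 1097 CPM in control livers, most of it from Fn1, which hepatocytes make as well. The B cell list summed to 1.88 to 3.80 CPM in LPS livers and 6.32 to 7.49 CPM in control livers, with 2 of 5 tested markers lower. Of 4 tested plasma cell markers 1 rose (Xbp1, which hepatocytes express too) and 1 fell (Igkc), and Tnfrsf17 was at 0. The plasmacytoid dendritic cell list summed to 16.8 to 22.7 CPM in LPS livers and 11.3 to 17.9 CPM in control livers, nearly all of it from Tcf4, the 1 of 6 markers that passed the filter, which other cells express as well (18.6 ± 2.99 CPM in LPS livers, 12.3 ± 3.72 CPM in control livers). The other 5 were too low to test and had lower means in LPS livers, with Siglech at 0.141 ± 0.244 CPM in LPS livers and 0.731 ± 0.227 CPM in control livers. Conventional dendritic cell markers summed to 42.0 to 69.2 CPM in LPS livers and 60.3 to 83.3 CPM in control livers, with 2 of 5 tested lower and 0 higher. Those of T and NK cells summed to 7.20 to 9.63 CPM in LPS livers and 2.97 to 6.71 CPM in control livers, with 1 of 5 tested (Gzma) higher and 0 lower. Liver endothelial markers summed to 189 to 315 CPM in LPS livers and 305 to 330.4 CPM in control livers, with 5 of 8 lower and 1 (Lyve1) higher. Stellate cell markers summed to 212 to 251 CPM in LPS livers and 244 to 254 CPM in control livers, mostly from Dcn and Reln, which were not called, while 4 of the 7 fell (Lrat, Colec11, Col1a1 and Des). Cholangiocyte markers summed to 117 to 139 CPM in LPS livers and 19.4 to 32.9 CPM in control livers, mostly from Spp1 and Sox9, which rose as did Epcam. Krt19 of that list fell, with 0.292 ± 0.235 CPM in LPS livers and 1.95 ± 0.980 CPM in control livers (adjusted p = 0.00231), and Krt7 was too low to test. Of the hepatocyte markers 9 fell and 1 rose.

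The genes whose pattern was most like that of Irf7, the member with the largest rise, were Cdkn1a, Gbp9 and Arrdc4. Likeness was the root mean square difference of log2 CPM, centred on each gene's mean, over the 6 libraries, among 7437 other genes with a mean of at least 10 CPM. It was 0.10 for Cdkn1a, with 362 ± 16.6 CPM in LPS livers and 36.0 ± 8.77 CPM in control livers, 0.12 for Gbp9 and 0.13 for Arrdc4. For Irf3 the nearest reported here were Snap47 at 0.08 and Lzts3 at 0.10. Snap47 had 18.8 ± 2.86 CPM in LPS livers and 63.6 ± 9.31 CPM in control livers.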

How the data were processed

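Total liver RNA was sequenced in 6 libraries, 3 per group, each with a table of its own. The values the authors deposited are raw, unnormalized counts of each gene, in fields of 8 characters for symbol, Entrez identifier and count. Per the submitters' processing notes, bcl2fastq 2.0, HISAT2, StringTie, DESeq2, limma and the build mm10 were used, with no roles given. No source used here names the counter, the annotation, the strand setting or the handling of multi-mapped reads. Of 22488 lines 20722 were named by Entrez identifier from RefSeq (GRCm38.p6) and the rest kept the deposited symbol. Replicates within a group differed by more than counting noise alone, with a chi-square per degree of freedom of 11.6 to 31.2. That value cannot tell separate animals from technical differences between repeats of 1 sample.

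Counts were tested in R 4.3.3 with edgeR 4.0.16: TMM, filterByExpr with a count minimum of 10 in 3 samples and a total of 15, 2-sided quasi-likelihood F test, Benjamini-Hochberg adjustment over 12078 genes, threshold 0.05. SE is the log2 fold change over the square root of F. The script was tested on simulated data. Ratios used exact permutation. Positions, exon overlaps and lengths come from GENCODE M21 (GRCm38), with the longest of the best-ranked APPRIS transcripts as principal transcript. Members and lists were chosen with earlier results of these data known. All 8 members were named, and, per list, the 3 most significant genes and the one with the highest mean CPM. The 3 nearest genes were named for the member with the largest, the lowest and the most abundant value. A few genes this rule picks are not reported here but remain within the list totals. Alternatives were no filter, library totals, DESeq2 size factors, DESeq2 1.42.0, the replicate number as a block, and each library left out.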

Additional observations from a re-analysis of the deposited data

How the results depend on the processing

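Each of the 7 members called kept its direction and stayed past the threshold in all 11 alternatives. With 1 library left out, Irf7 ran from 3.26 to 3.52 on the log2 scale, Irf8 from 2.05 to 2.28, Irf1 from 1.23 to 1.495, Irf3 from -1.94 to -1.62, Irf9 from 0.57 to 0.77, Irf2 from 0.53 to 0.73 and Irf5 from 0.58 to 0.74, whose adjusted p reached 0.0478. Irf4 passed in 0 of 11 and stood at 1.45 without control replicate 1 (adjusted p = 0.0704) and 0.52 without control replicate 3, so its value rests on single libraries. The Irf7 to Irf3 and Irf1 to Irf2 ratios are the same per kilobase, by construction, apart from a constant. With 1 library left out, genes lower in LPS livers numbered 1 to 2 in the sensing list, where Irak1 joined Mavs without LPS replicate 1 (-0.38), and 1 to 2 in the receptor list, where Tyk2 lost its call. Il10rb, a rise in the receptor list, lost its call in 9 of the 11 alternatives (DESeq2 adjusted p = 0.0524). Among other listed genes, Il15 lost its call without control replicate 2, Ly96 gained one there, and Traf3 gained one without LPS replicate 2 or control replicate 1. Library totals as scaling moved the median gene by -0.07. Labels number the libraries of both groups 1 to 3 without saying that numbers pair them, and same-numbered libraries correlated at -7.45e-04, 0.104 and 0.0352 after subtracting group means. With the replicate block 3780 genes were higher and 3766 lower, against 3781 and 3747 without it, and among the members 6 and 1 both ways.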
